A study of Danio rerio with 11 samples.

Results

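The SoxB1 genes *sox2*, *sox3*, *sox1a*, *sox19a* and *sox19b* and the SoxC genes *sox4a*, *sox11a* and *sox11b* were followed in the RNA-seq of zebrafish melanoma cells and skin melanocytes. These 8 genes were taken by symbol from the 24441 genes of the expression table, which lists them under 9 identifiers because *sox4a* stands under 2. The tumor cells (MA, n = 5) were sorted by GFP from melanomas of adult BRAFV600E, p53lf/lf fish that carried crestin:EGFP, a reporter under the promoter of a neural crest gene. MA1 and MA2 were tumors of separate fish, whereas MA3A, MA3B and MA3C were taken from the dorsal fin, tail and head of another fish, which makes 3 fish for the 5 tumors. The heterozygous melanocytes (MC_Het, n = 3 fish) were sorted by mCherry from skin of BRAFV600E/+, p53+/lf, mitfa+/- fish with the mitfa:mCherry transgene, and the wild-type melanocytes (MC_WT, n = 3 fish) were sorted in the same way from AB\* fish with mitfa:mCherry. In both melanocyte groups mCherry was carried by MiniCoopR, a vector that also holds a *mitfa* minigene, and *BRAF* was driven by the *mitfa* promoter wherever it was present. Tumor and melanocyte samples therefore differed in reporter, sorted tissue and genotype together, and these cannot be told apart.

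Sox proteins bind DNA through an HMG box. SoxB1 proteins are transcriptional activators that work with partners such as POU factors and keep neural and sensory progenitors undifferentiated, and SoxB2 proteins bind similar sites as repressors. SoxC proteins are activators that act later, in cells leaving the progenitor state, and in mammals Sox4 and Sox11 are active in many embryonic tissues and tumors. Neither group is a defining group of the melanocyte lineage, in which the SoxE protein Sox10 works upstream of Mitf.

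The libraries held 14718024 to 22612463 reads. Values are CPM (counts of a gene scaled to a common library total) rescaled by the median of ratios, with factors from 1.19 to 1.36 in MA and from 0.69 to 0.89 in melanocytes. Fold changes (log2FC) are differences of log2(rescaled CPM + 1) fitted with limma over the genes that reached 1 CPM in 3 or more samples, a scale that understates the change of genes with low CPM. A gene was called at a log2FC beyond 1 and a Benjamini-Hochberg adjusted p under 0.05. Melanocyte markers summed to 3648 to 11171 rescaled CPM in MA, against 1348 to 5536 in MC_Het and 524 to 1114 in MC_WT. Keratinocyte markers (12 symbols found of 16) summed to 1388 to 5304 in MA, against 57163 to 98226 in MC_Het and 73896 to 123170 in MC_WT. Most of the MA sum was *krt8*, and without it the sums were 275 to 548 in MA, 54764 to 96024 in MC_Het and 69494 to 119834 in MC_WT. The samples labelled melanocytes thus held far more reads of keratinocyte markers than of melanocyte markers, and in bulk samples fewer cells of a type and less RNA per cell cannot be told apart. *mitfa* was lowest in MC_Het3 (3.70 rescaled CPM), which also had the lowest *sox10* (3.97).

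In melanoma against all melanocytes, 6 of the 8 genes were tested and 4 of these were called, with *sox2* and *sox4a* higher in MA and *sox3* and *sox19a* lower. Of the 14706 genes tested, 43.9% were called, 18.6% higher and 25.3% lower. Whether the share of called members differs from that of all genes was not tested. These 4 were also the members without overlap between MA and melanocyte samples, against 12.5% of all genes without overlap and higher and 18.6% without overlap and lower. The 4 called genes were the same against MC_WT alone, where 41.3% of all genes were called (17.2% higher and 24.1% lower), and against MC_Het alone, where 42.3% were called (18.1% higher and 24.2% lower). These comparisons share the 5 MA samples. At an adjusted p under 1e-6, *sox4a* was the only member called higher and *sox3* the only member called lower over all melanocytes, against 0.544% and 4.64% of all genes. With the tumors of fish MA3 averaged, *sox4a* missed this limit (adjusted p = 2.8e-06, limma). At that limit *sox3* alone was called over MC_WT, against 0.15% of all genes called higher and 2.58% lower, and *sox4a* and *sox3* were called over MC_Het, against 0.129% and 3.01%. *sox19b* and *sox11a* were tested and not called, and *sox1a* and *sox11b* were below the filter. *sox2* passed the filter through the MA samples, and *sox3* and *sox19a* passed it through the melanocytes. The same holds for genes of the lists below that were read almost only in tumors or almost only in melanocytes. The direction of their calls was partly set by the filter.

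**Figure D1:**
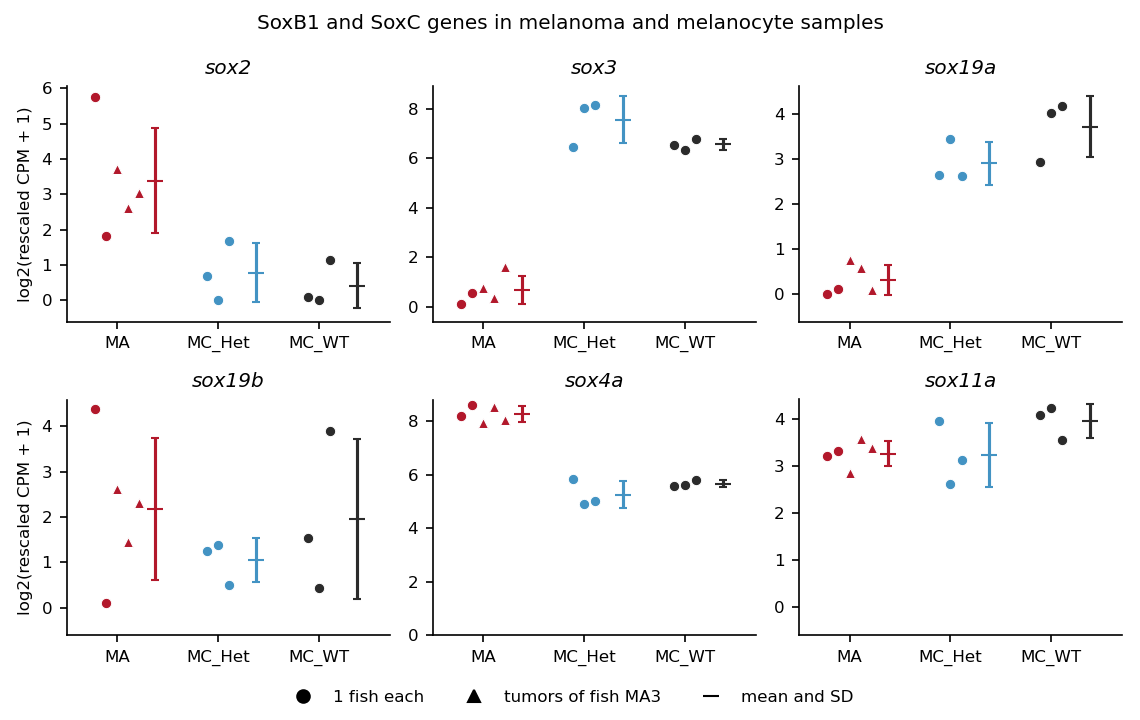
Each panel plots log2(rescaled CPM + 1) of a gene by sample in MA, MC_Het and MC_WT. Circles are samples from a fish each, triangles are the 3 tumors of fish MA3, and bars give the mean and SD of each group. *sox2* and *sox4a* sit higher in every MA sample than in any melanocyte sample, *sox3* and *sox19a* sit lower, and the groups overlap for *sox19b* and *sox11a*.

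*sox2* encodes a SoxB1 activator that maintains neural stem cells and sensory progenitors, and in mammals it belongs to the factors used to make pluripotent cells. It was at 53.5 rescaled CPM in MA1, 2.52 in MA2, 12.1 in MA3A, 5.14 in MA3B and 7.18 in MA3C. It was at 0.597, 0 and 2.19 in the 3 MC_Het samples and at 0.0731, 0 and 1.21 in the 3 MC_WT samples. MA1 was far above the other tumors, MA2 was only just above MC_Het3, and no MA sample overlapped a melanocyte sample. These levels rest on 60 to 1330 reads per MA library, against 0 to 32 in MC_Het and 0 to 20 in MC_WT. The log2FC of MA over all melanocytes was 2.79 (standard error 0.59, adjusted p = 0.0010, limma). Without MA1 it was 2.18 (adjusted p = 0.0011, limma, over a range of 0.00036 to 0.0034 with each sample left out).

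By limma with the 3 groups apart, log2FC of *sox2* was 2.97 over MC_WT (standard error 0.72, adjusted p = 0.0039) and 2.61 over MC_Het (standard error 0.72, adjusted p = 0.0088). The call over MC_Het was lost without MC_Het2, the MC_Het library with 0 *sox2* reads, where log2FC was 2.21 (adjusted p = 0.050, limma, the highest of a range of 0.0029 to 0.050 with each sample left out). Averaging the 3 tumors of fish MA3 gave 2.99 over all melanocytes (adjusted p = 0.0049, limma). On the recovered reads the change was larger, 4.55 with edgeR (adjusted p = 0.0050) and 4.56 with DESeq2 (adjusted p = 4.7e-05).

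*sox3*, a SoxB1 gene of the early neural plate and sensory placodes, showed the largest change of the members and the opposite direction. It was at 0.0804 rescaled CPM in MA1, 0.462 in MA2, 0.684 in MA3A, 0.269 in MA3B and 2.04 in MA3C. It was at 86.5, 262 and 284 in MC_Het and at 92.2, 80.0 and 110.0 in MC_WT. Every melanocyte sample was far above every tumor, and within the tumors MA3C was highest and MA1 lowest. The means were 0.706 ± 0.777 (SD, n = 5) in MA and 152 ± 94.1 (SD, n = 6) in melanocytes, a ratio of 0.00463. The log2FC was -6.38 over all melanocytes (standard error 0.40, adjusted p = 3.8e-09, limma), -5.89 over MC_WT (adjusted p = 1.0e-07) and -6.88 over MC_Het (adjusted p = 1.9e-08). In MA *sox3* was read 2 to 55 times per library, against 1304 to 4142 times in MC_Het and 1262 to 1824 times in MC_WT.

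Keratinocyte markers moved with *sox3* between the groups. All 12 called keratinocyte identifiers of the 13 tested were lower in MA, where 25.3% of all genes were called lower and 18.6% higher. Their list had a median log2FC of -7.48 against 0.04 over all genes, and none was at 0 in every MA sample. The gene that was not called was *krt8*, a keratin of simple epithelia, at 937 to 4755 rescaled CPM in MA, against 2203 to 4548 in melanocytes, and it was singled out after its values were seen. *krt5*, a basal keratin and the highest of the list by its mean over all samples, was at 57.2 to 131 rescaled CPM in MA, against 11255 to 76848 in melanocytes (log2FC -8.64, standard error 0.41, adjusted p = 2.0e-10, limma). Among the 6 melanocyte samples the order of *sox3* differed from that of the summed markers, and no single marker had the full order of *sox3*. *sox3* was highest in MC_Het3 and MC_Het2, whose keratinocyte sums were 98226 and 57163, while MC_WT1 had the highest keratinocyte sum (123170) with 92.2 rescaled CPM of *sox3*. *krt4* and *krt1-19d*, also chosen after their values were seen, were highest in MC_Het3 and MC_Het2 as *sox3* was. *evpla* was only just so (371 in MC_Het3, against 364 in MC_WT3). The other markers went otherwise. *krt5*, *cldne*, *cldni*, *epcam*, *tp63* and the more abundant *krt17* identifier were highest in MC_WT1. *krt8* was highest in MC_Het1, *krtt1c19e* in MC_WT2, *perp* in MC_Het2 and the other *krt17* identifier in MC_Het3. *krt4* was at 25216 in MC_Het3 and 16457 in MC_Het2, against 6689 to 11165 in the other 4 melanocyte samples, and *krt1-19d* was at 2102 and 2143, against 450 to 1174. The part of keratinocyte RNA in the *sox3* difference was not tested.

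**Figure D2:**
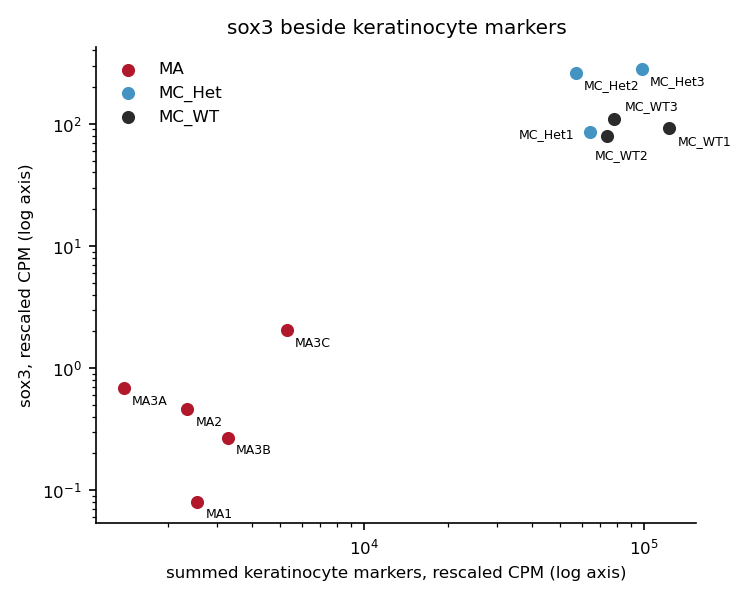
*sox3* (rescaled CPM, log axis) is plotted against the summed keratinocyte markers (rescaled CPM, log axis), with a point for each of the 11 samples coloured by group. The 5 MA samples lie at the lower left, with at most 2.04 rescaled CPM of *sox3* and 5304 of keratinocyte markers (mostly *krt8*), and the 6 melanocyte samples lie at the upper right.

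*sox19a*, a SoxB1 gene of the embryonic nervous system in fish, was lower in MA as well. It was at 0, 0.0841, 0.684, 0.499 and 0.0741 rescaled CPM in MA1, MA2, MA3A, MA3B and MA3C. In melanocytes it was at 5.24, 9.83 and 5.13 in MC_Het and at 6.65, 15.3 and 17.1 in MC_WT. The highest tumor was below the lowest melanocyte sample. The tumors held 0 to 18 reads per library, against 75 to 121 in MC_Het and 91 to 284 in MC_WT. The log2FC was -3.0 over all melanocytes (standard error 0.38, adjusted p = 8.5e-06, limma), -3.40 over MC_WT (adjusted p = 1.4e-05) and -2.59 over MC_Het (adjusted p = 0.00016). On the recovered reads it was -5.16 with edgeR (adjusted p = 0.00042).

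*sox19b*, which is supplied by the mother to the zebrafish egg and helps to start transcription in the embryo, varied more within the groups than between them. It was at 19.7 rescaled CPM in MA1, 0.0841 in MA2, 5.17 in MA3A, 1.73 in MA3B and 3.96 in MA3C. It was at 1.39, 1.62 and 0.411 in MC_Het and at 1.90, 0.363 and 13.9 in MC_WT. MA2 was below every melanocyte sample, and MC_WT3 was above every tumor but MA1. The log2FC over all melanocytes was 0.67 (95% interval -0.82 to 2.16, adjusted p = 0.44, limma). The log2FC was 0.22 over MC_WT (adjusted p = 0.86), where it turned to -0.33 without MA1 and to -0.55 without MC_WT2, and 1.13 over MC_Het (adjusted p = 0.30, limma).

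The tumors had the same order in *sox2* and *sox19b*, with MA1 highest, then MA3A, MA3C, MA3B and MA2. The order was read off after the values were seen. *elavl4*, a neuronal RNA-binding protein, had this order too, at 65.1 rescaled CPM in MA1, 14.2 in MA3A, 6.41 in MA3C, 4.91 in MA3B and 1.39 in MA2. MA1 also had the lowest melanocyte marker sum of the tumors (3648 rescaled CPM, against 4286 to 11171 in the other 4) and the highest sum of macrophage and T cell markers (917, against 78.6 to 474). Their part in the level of *sox2* was not tested.

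*sox1a*, a SoxB1 gene of the developing brain and lens, was close to absent from the counts. It had 21 reads in MC_WT1 and no more than 1 read in each of the other 10 libraries. The difference of mean log2(rescaled CPM + 1) between MA and all melanocytes was -0.26 (2-sided exact permutation test, p = 0.091).

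Within the SoxB1 group the leading gene differed between the tumor samples and the samples labelled melanocytes. The latter held far more reads of keratinocyte markers than of melanocyte markers. The part of keratinocyte RNA in this difference was not tested. The deposited RPKM divide CPM by gene length and so allow genes to be compared, and their SoxB1 sum includes *sox1b*, the paralogue of *sox1a*. On this scale *sox2* was the highest SoxB1 gene in all 5 tumors, with 55.9% to 78.5% of the summed SoxB1 RPKM. *sox3* was the highest in all 6 melanocyte samples, with 81.8% to 97.8%. The second gene was *sox19b* in 4 tumors and *sox3* in MA2, and it was *sox19a* in every melanocyte sample. In RPKM the means in MA were 10.4 ± 14.0 for *sox2*, 3.20 ± 4.19 for *sox19b*, 0.498 ± 0.521 for *sox3* and 0.164 ± 0.191 for *sox19a* (SD, n = 5). Although the ranges of *sox2* and *sox19b* across tumors overlap, *sox2* was above *sox19b* within each tumor.

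In melanocytes the RPKM means were 70.4 ± 44.3 for *sox3*, 3.72 ± 2.03 for *sox19a*, 0.995 ± 1.58 for *sox19b* and 0.264 ± 0.342 for *sox2* (SD, n = 6). The lowest *sox3* (35.8 RPKM) was well above the highest *sox19a* (6.26 RPKM), whereas the ranges of *sox19a* and *sox19b* overlap. The summed SoxB1 RPKM was 1.90 to 45.6 in MA, 46.0 to 133 in MC_Het and 39.0 to 59.1 in MC_WT. On these deposited RPKM only MA1 reached the melanocyte range, and its sum was made of other genes. The RPKM were not rescaled by the median-of-ratios factors (1.19 to 1.36 in MA, 0.69 to 0.89 in melanocytes). Dividing by these factors would lower the tumor sums and raise the melanocyte sums. The overlap of MA1 thus holds on the deposited scale only.

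**Figure D3:**
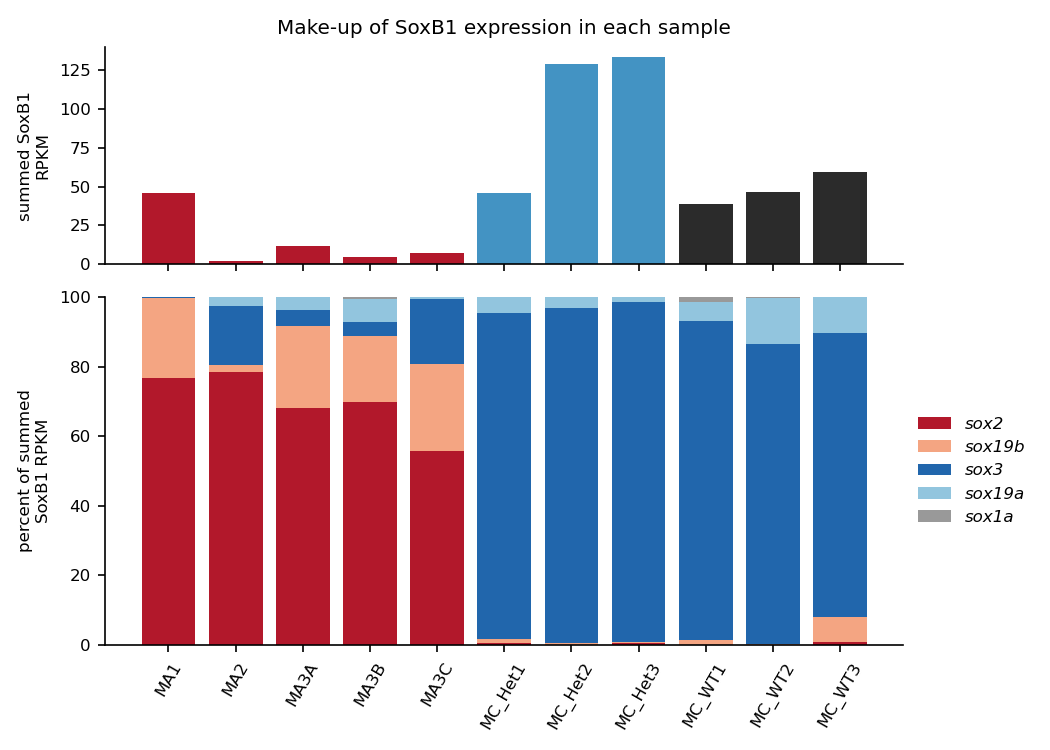
The upper bars give the summed RPKM, as deposited and not rescaled, of the 5 SoxB1 members and *sox1b* in each sample, coloured by group. The lower bars give the percent of that sum held by each gene, and the part labelled *sox1a* also holds *sox1b*. *sox2* holds 55.9% to 78.5% of the sum in the 5 MA samples and *sox3* holds 81.8% to 97.8% in the 6 melanocyte samples.

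*sox4a*, a SoxC activator of genes for differentiation and cell survival, was the most abundant member in the tumors and varied little between them. It was at 295 rescaled CPM in MA1, 391 in MA2, 242 in MA3A, 366 in MA3B and 259 in MA3C. It was at 55.8, 29.2 and 31.5 in MC_Het and at 47.3, 47.7 and 54.7 in MC_WT. The lowest tumor was above the highest melanocyte sample by a wide margin. The highest tumor was 1.62 times the lowest, whereas this ratio was 1.75 for *sox11a* and 21.2 for *sox2*. The means were 311 ± 65.4 (SD, n = 5) in MA and 44.4 ± 11.4 (SD, n = 6) in melanocytes, which is 7.0 times the melanocyte mean.

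The log2FC of *sox4a* was 2.80 over all melanocytes (standard error 0.24, adjusted p = 1.1e-07), 2.59 over MC_WT (adjusted p = 3.6e-06) and 3.0 over MC_Het (adjusted p = 7.7e-07), each by limma. With each sample left out in turn it stayed between 2.67 and 2.89 over all melanocytes. At 6370 to 9530 reads in MA, against 359 to 840 in MC_Het and 647 to 907 in MC_WT, counting error was small beside the spread between samples. The values above belong to ENSDARG00000004588, whose NCBI gene number in the table (336346) is that of *sox4a* in RefSeq. The second identifier with the symbol *sox4a* (ENSDARG00000096389) carries no gene number, so that which gene it stands for is not settled here, and it had 0 reads in all 11 libraries. The SoxC paralogue *sox4b* was looked for by symbol and was not among the genes of the expression table.

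*sox11a*, a SoxC gene of differentiating neurons, showed no such difference. It was at 8.32, 9.04, 6.23, 10.9 and 9.48 rescaled CPM in MA1, MA2, MA3A, MA3B and MA3C. It was at 14.6, 5.20 and 7.74 in MC_Het and at 16.1, 18.1 and 10.7 in MC_WT. The tumors lay inside the range of MC_Het, and only MA3B reached the lowest MC_WT sample. The log2FC over all melanocytes was -0.33 (95% interval -1.05 to 0.39, adjusted p = 0.43, limma), and with the CPM as deposited it turned to 0.28. Over MC_WT it was -0.70 (95% interval -1.50 to 0.11, adjusted p = 0.15). Over MC_Het it was 0.03 (95% interval -0.78 to 0.84, adjusted p = 0.95, limma), and it was -0.045 with edgeR and -0.072 with DESeq2 on the recovered reads.

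*sox11b*, the second *sox11* gene of zebrafish, had 1 read in MA2 and 0 reads in the other 10 libraries. A count of 0 allows up to 3 reads, which is 0.133 to 0.204 CPM as deposited, depending on the library, and this limit covers counting error only. By length, *sox4a* was above *sox11a* in all samples, at 95.01 to 147 RPKM against 2.57 to 4.35 in MA and at 7.48 to 15.0 RPKM against 1.32 to 4.87 in melanocytes. *sox4a* made up 71.5% to 96.5% of the RPKM summed over all members in MA, and 5.44% to 23.1% in melanocytes, where *sox3* was first in all 6 samples. Members share the HMG box sequence, and how reads of 50 bases from such shared stretches were divided is not given in the sources used here.

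**Figure D4:**
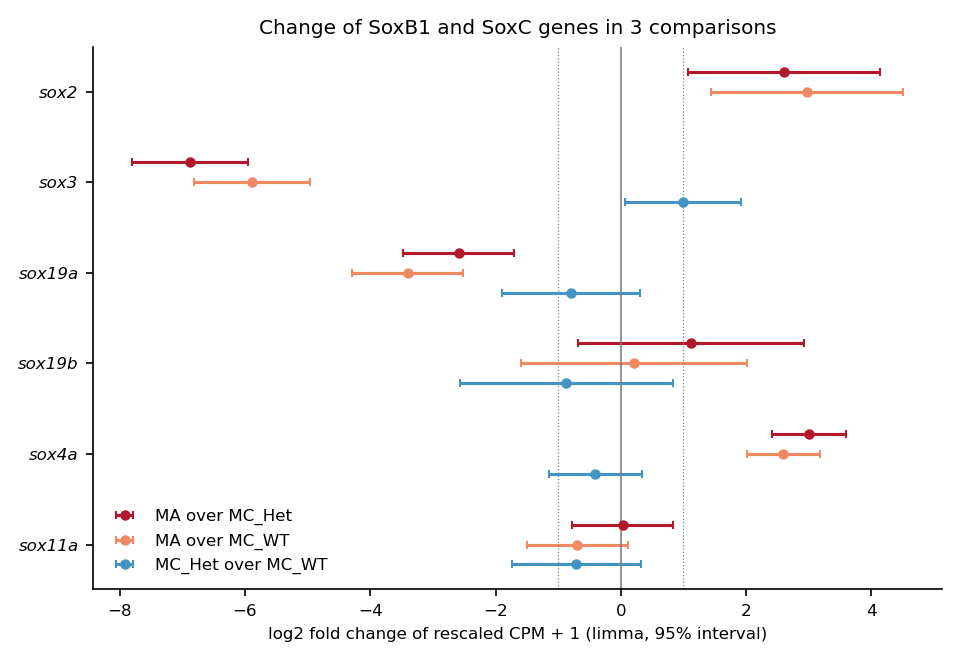
Points give the limma log2 fold change of rescaled CPM + 1 for the members that passed the filter, with 95% intervals, in MA over MC_Het, MA over MC_WT and MC_Het over MC_WT, and dotted lines mark a log2 fold change of 1 in each direction. The intervals of *sox2* and *sox4a* lie above 0 and those of *sox3* and *sox19a* lie below 0 in both melanoma comparisons, while those of *sox19b* and *sox11a* include 0.

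The melanocyte genotypes differ in heterozygous *BRAF* and *p53* alterations before a tumor forms. They also differ in *mitfa* (+/- in MC_Het) and in a cross to another line, and these cannot be told apart. None of the 5 members tested between them was called by limma, edgeR or DESeq2. Of the 13044 genes tested by limma, 0.537% were called. At an unadjusted p under 0.05 there was 1 member, *sox3*, against 12.7% of all genes. *sox3* was 262 and 284 rescaled CPM in MC_Het2 and MC_Het3, above the 80.0 to 110.0 of MC_WT, but MC_Het1 at 86.5 lay inside the MC_WT range. Its log2FC was 0.99 (95% interval 0.064 to 1.92 before adjustment, adjusted p = 0.36, limma). Without MC_Het1 it was 1.53 (adjusted p = 0.055, limma, the lowest of a range of 0.055 to 0.69 with each sample left out). MC_Het2 and MC_Het3 had less *mitfa* (12.3 and 3.70 rescaled CPM) than the other melanocyte samples (21.8 to 37.5). Their melanocyte marker sums (3924 and 1348) were nevertheless above those of MC_WT (524 to 1114). The part of sample make-up in the *sox3* difference was not tested.

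The 4 other members tested between genotypes had intervals that include 0. The log2FC of MC_Het over MC_WT was -0.41 for *sox4a* (95% interval -1.14 to 0.33), -0.79 for *sox19a* (-1.89 to 0.30), -0.87 for *sox19b* (-2.57 to 0.83) and -0.71 for *sox11a* (-1.75 to 0.33). The lower end of each lies beyond a halving, so these samples leave room for lower levels in MC_Het of that size. *sox2* did not pass the filter within the melanocytes, with 41 reads in all of MC_Het and 21 in all of MC_WT. Its mean log2(rescaled CPM + 1) differed by 0.37 (2-sided exact permutation test, p = 0.70, where 3 samples against 3 cannot go below 0.10).

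Of the nearest relatives of the members, *sox1b*, the paralogue of *sox1a*, had 0 reads in MA and 4 in melanocytes. Of the 3 SoxB2 repressors, *sox14* passed the filter and was lower in MA, at 0.0380 to 0.593 rescaled CPM with a median of 0.0841, against 0.929, 13.7 and 9.24 in MC_Het and 13.7, 2.60 and 25.4 in MC_WT. The groups did not overlap, although MC_Het1 came close to the highest tumor (log2FC -2.83, standard error 0.57, adjusted p = 0.00068, limma). *sox21a* had 13 reads in MA and 27 in melanocytes, of which 21 were in MC_Het1, and *sox21b* had 2 and 3.

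Other Sox groups also held genes that rose and genes that fell. Of all genes 18.6% were called higher and 25.3% lower over all melanocytes, and 24.1% lower over MC_WT. Whether the Sox groups differ from these shares was not tested. Of 3 SoxD genes, *sox5*, which modulates Sox10 in the melanocyte lineage, rose to 267 ± 104 rescaled CPM in MA (SD, n = 5), against 20.8 ± 14.5 in melanocytes (SD, n = 6), with a log2FC of 3.81 (standard error 0.44, adjusted p = 3.2e-06, limma). *sox6* rose with it and *sox13* fell (log2FC 2.42 and -2.46). Among the SoxE genes, *sox10* rose to 557 ± 111 in MA (SD, n = 5), against 37.1 ± 24.4 in melanocytes (SD, n = 6), and *sox9b*, a gene of cartilage and crest, fell to 0.255 ± 0.244, against 9.86 ± 4.63. The SoxF gene *sox7* of blood vessels fell to 0.802 ± 0.626 in MA, against 28.4 ± 9.61 in melanocytes, and *sox18* was called lower over MC_WT alone (log2FC -1.02, adjusted p = 0.046, limma).

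**Figure D5:**
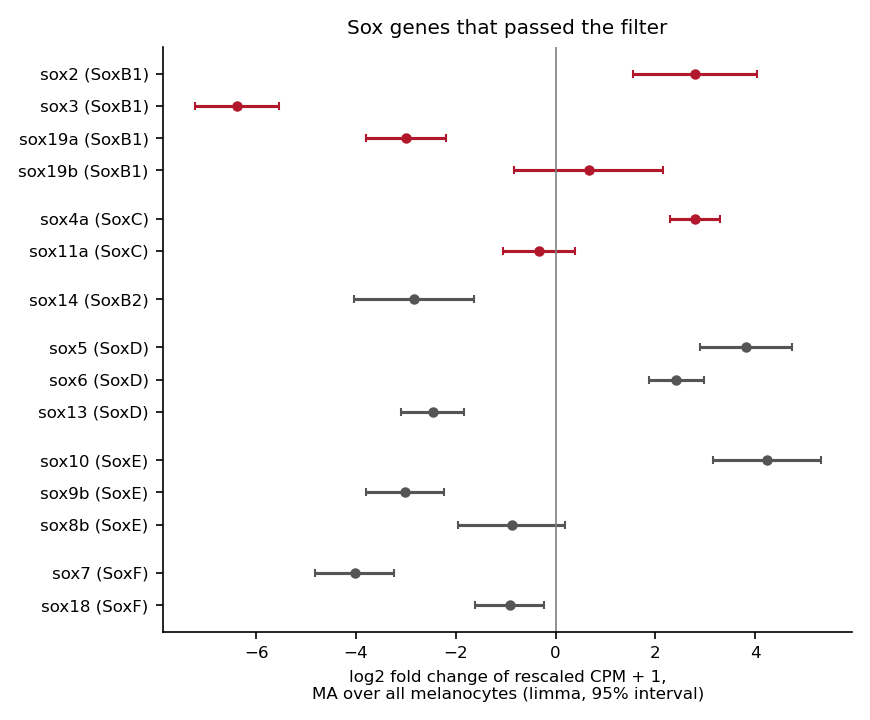
Points give the limma log2 fold change of rescaled CPM + 1 in MA over all melanocytes, with 95% intervals, for 15 Sox genes. These are the genes that passed the filter among those looked for by symbol, ordered by group with SoxB1 and SoxC in red. *sox10*, *sox5*, *sox4a*, *sox2* and *sox6* lie above 2, and *sox3* lies lowest at -6.38.

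Genes known to work with SoxB1 proteins or to mark neural progenitors moved in both directions. Of 22 partner and neural progenitor genes listed, 9 passed the filter, of which 1 rose and 3 fell in MA over all melanocytes, with a median log2FC of -0.74 against 0.04 over all genes. Among all genes tested, 18.6% were called higher and 25.3% lower, and whether the list differs from these shares was not tested. *fabp7a*, a fatty acid binding protein of radial glia, rose (log2FC 2.72, adjusted p = 0.0071, limma). It was at 132 rescaled CPM in MA3B and 13.4 to 23.6 in the other 4 tumors, against 1.59, 0.0812 and 0.0685 in MC_Het and 9.86, 11.2 and 9.71 in MC_WT, so that every tumor was above every melanocyte sample and MC_Het was below MC_WT. Its log2FC was 1.24 over MC_WT (adjusted p = 0.12, limma, or 1.92 and called at 0.020 with the CPM as deposited) and -2.75 in MC_Het over MC_WT (adjusted p = 0.046, limma). The call between genotypes was lost under most other settings, among them without MC_Het2, MC_Het3, MC_WT1 or MC_WT3 (adjusted p = 0.16 to 0.22, limma) and with edgeR (adjusted p = 0.22), whereas DESeq2 called it (adjusted p = 0.0035). *pou5f3*, the POU partner of Sox19b in the early embryo, fell to 0.281 ± 0.383 rescaled CPM in MA (SD, n = 5), against 5.75 ± 4.90 in melanocytes (SD, n = 6, log2FC -2.19, adjusted p = 0.00053, limma). *ascl1b*, a proneural factor and the most abundant of the list, was at 39.3 ± 17.1 in MA, against 49.2 ± 15.8 in melanocytes, and was not called (log2FC -0.46, turning to 0.19 with the CPM as deposited).

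Of 15 genes of neuronal differentiation that are associated with SoxC activity, 7 passed the filter, 2 rose and 0 fell, with a median log2FC of 0.79. *stmn1a*, a regulator of microtubules, was at 363 ± 144 rescaled CPM in MA (SD, n = 5), against 72.9 ± 20.5 in melanocytes (SD, n = 6), with a log2FC of 2.22 (standard error 0.33, adjusted p = 4.3e-05, limma). *elavl4* rose as well (log2FC 2.65, standard error 0.71, adjusted p = 0.0058, limma), with overlap between the groups. MA2 and MA3B (1.39 and 4.91 rescaled CPM) were below MC_WT1 (5.84), while the other melanocyte samples were at 0.0812 to 0.465. Over all genes 18.6% were called higher and 25.3% lower. Proliferation genes had 7 of 9 higher and 0 lower, led by *ccnb1* (log2FC 3.49) and by *pcna* in level (197 ± 31.7 in MA, SD, n = 5).

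SoxB1 genes are also known from the lateral line and from mechanosensory cells of the skin, and most genes of these lists that passed the filter fell. Of 14 lateral line and placode genes, 10 were tested, 7 fell and 1 rose, with a median log2FC of -1.70, where 25.3% of all genes were called lower and 18.6% higher. The sum was 143 to 300 rescaled CPM in MA, against 11211 to 23190 in melanocytes, nearly all of it in melanocytes from *cldnb*, a claudin that the epidermis expresses too and that was at 26.0 to 95.5 in MA (log2FC -8.25, adjusted p = 2.7e-11, limma). *tnfsf10l3* was the gene that rose (log2FC 3.09, adjusted p = 0.0022, limma). Of 11 hair cell and Merkel cell genes, 4 were tested, 3 fell and 1 rose. *eya1*, *fgf10a*, *klf17*, *six4a* and *sost* of the first list passed the filter only with the melanocyte samples counted. So did *myo6b*, *s100t* and *tekt3* of the second list, whereas *gfi1aa* passed it only with the tumors counted. The direction of such calls was partly set by the filter. *s100t* was at 0 to 0.0402 in MA, against 1.81 to 52.0 in melanocytes, and *gfi1aa* was at 1.19 to 2.99, against 0 to 1.75. The defining hair cell and Merkel cell factor *atoh1a* did not exceed 0.0402 rescaled CPM in MA or 0.422 in melanocytes. *pou4f3* was at 0 in all MA samples and did not exceed 0.162 in melanocytes, so both were close to absent from either group.

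Markers of other cell types fell with *sox3* and *sox19a* too, and their part in either difference was not tested. Fibroblast and osteoblast markers fell in 9 of 9 (9.39 to 98.8 rescaled CPM summed in MA, against 801 to 5130 in melanocytes, highest *col1a2*). Macrophage and T cell markers fell in 8 of 10 (78.6 to 917, against 4765 to 7751, highest *cd74a*). Schwann cell markers fell in 5 of 6 (58.8 to 253, against 958 to 3873, highest *pmp22b*) and endothelial markers in 3 of 4 (1.64 to 6.03, against 26.2 to 63.9, highest *fli1a*, with *pecam1* falling most). None of these 4 lists had a gene that rose, where 25.3% of all genes were called lower and 18.6% higher.

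The remaining lists were mixed or pointed the other way. In MA over all melanocytes 18.6% of all genes were called higher and 25.3% lower, and over MC_Het 18.1% and 24.2%. Whether any of these lists differs from those shares was not tested. Melanocyte markers rose in 8 of 10 over all melanocytes and in 5 of 10 over MC_Het, with *dct* rising most (log2FC 4.35), *tyrp1b* highest in level and *oca2* falling (log2FC -1.96). Xanthophore and iridophore markers had 1 of 6 higher (*alx4a*) and 2 lower (*aox5* most), with *pnp4a* the highest in level. Ionocyte markers had 1 of 2 lower, *ca15a*, and *atp6v1aa* not called. Erythrocyte markers had 3 of 7 identifiers lower, *hbaa1* most, while *hbba2*, the highest in level, was not called.

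The genes with the most similar profile were found by the root mean square difference of log2(rescaled CPM + 1), each gene centred on its mean over the 11 samples, among all tested genes. A small value means only that the profiles run together, and low genes come close to each other easily. A direction or sample order that a neighbour shares with its member follows in large part from this choice. *sox4a* ran closest to *stard13a* (0.25), *EIF1B* (0.31) and si:dkeyp-41f9.3 (0.32), which had log2FC of 2.68, 2.40 and 2.97 in MA over all melanocytes. *sox3* ran closest to si:ch211-202f3.3 (0.34), *elovl7a* (0.35), a fatty acid elongase, and a gene known only by a clone name (0.40), all with a log2FC near -6. Each of these 3 was under 2.19 rescaled CPM in every tumor and above 52.0 in every melanocyte sample.

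*sox19a* ran closest to a gene without a standard symbol (0.38), *nadl1.2* (0.38) and *mhc1uma* (0.39), all lower in MA. *sox2* ran closest to si:dkey-188i13.9 (0.48), *pitpnab* (0.52) and a further clone-named gene (0.60). si:dkey-188i13.9 had the tumor order of *sox2*, at 205 rescaled CPM in MA1, 59.8 in MA3A, 33.6 in MA3C, 24.2 in MA3B and 9.25 in MA2, against 3.98 to 11.3 in melanocytes. *sox19b* had no near neighbour, with 0.63 for the kinase gene *camk4*, 0.72 for *shc2* and 0.73 for zgc:113983. *sox11a* ran closest to BX005392.1 (0.22), *maff* (0.26) and *slc35b3* (0.28), none of which was called.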

How the data were processed

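RNA was measured in cells sorted from 5 tumors of 3 fish (MA) and from the skin of 3 MC_Het and 3 MC_WT fish, amplified as SMARTer cDNA and sequenced as single 50 base reads. Alignment was to GRCz11 with STAR, and the authors deposited CPM and RPKM (CPM divided by gene length) for each gene. Their methods name RSEM with RefSeq genes and DESeq2, while the deposited table lists Ensembl identifiers, so the counting behind it is not given in the sources used here. All deposited CPM (100%) were whole multiples of 1 read within 0.02 reads, which gave the recovered counts and totals. PCR reads are not independent molecules.

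The CPM were then rescaled with median-of-ratios factors from 12400 genes and tested in R 4.3.3 with limma 3.58.1 (trended eBayes, 2-sided, Benjamini-Hochberg). MA against all melanocytes was a fit of 2 groups, MA against each genotype a fit of 3 groups (14706 genes), and MC_Het against MC_WT a fit of those 6 samples (13044 genes). Each tumor counted as a sample. No batch term was used, since the sample titles name no batches, so differences between batches could not be checked. edgeR 4.0.16 and DESeq2 1.42.0 on recovered counts, other scalings, pseudocounts and filters, the RPKM table, the tumors of 1 fish averaged or blocked, and each sample left out were alternatives. Fits were tested on simulated data with few changed genes, as many up as down, and a single spread for all genes. The real data held far more called genes, so that test does not show how the fits perform on them.

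The members and gene lists were chosen with earlier results of these data known. Named were all members and the relatives *sox1b*, *sox4b*, *sox14*, *sox21a* and *sox21b*, which were looked for by symbol. Also named were the 3 nearest profiles of each tested member, and of each list the genes highest in level, rising most and falling most. ATAC-seq was not analysed here.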

Additional observations from a re-analysis of the deposited data

Results flagged for a closer look

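Of 17 groups of samples tested, 5 held a sample whose gap to the nearest other was large for the range of its group. Chance passes this limit in about 1 group in 20 only where values are normally distributed. These untransformed CPM, some from few reads, need not be, so the number of flags cannot be set against that rate. *sox2* (53.5 rescaled CPM, next 12.1) and *sox19b* (19.7, next 5.17) stood out in MA1 among the tumors. Among the 6 melanocyte samples, *sox19b* stood out in MC_WT3 (13.9, next 1.90), *sox1a* in MC_WT1 (1.53, next 0.0812) and *sox21a* in MC_Het1 (1.39, next 0.181).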

How the results depend on the processing

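The calls of *sox2*, *sox3*, *sox4a* and *sox19a* kept direction and side of the threshold in MA over all melanocytes and in MA over MC_WT under each of 24 alternative fits (23 for *sox19a*), apart from the stricter limit given below. In MA over MC_Het, *sox2* was lost without MC_Het2 (log2FC 2.21, adjusted p = 0.050, limma). At an adjusted p under 1e-6 with limma, 2 members were called over all melanocytes and 2 over MC_Het (*sox3* and *sox4a*), and 1 over MC_WT (*sox3*). Over all melanocytes *sox4a* missed that limit with the tumors of fish MA3 averaged (adjusted p = 2.8e-06, limma) and without a filter (1.3e-06, limma). It also missed it with limma without trend (1.06e-06) and with edgeR (1.5e-06), and *sox3* missed it with edgeR (5.3e-06). With a mean of at least 5 CPM *sox19a* was not tested and 3 were called. With each sample left out in turn, 4 members were called each time over all melanocytes. With the CPM as deposited the median log2FC of all genes moved to 0.58 from 0.04, and 5220 genes were called higher and 2866 lower, against 2740 and 3716, without a change in the direction of these 4 members.

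Among genes that were not called, the sign of log2FC in MA over all melanocytes turned with the CPM as deposited for *sox11a* (0.28), BX005392.1 (0.25), *maff* (0.53), *slc35b3* (0.61), *ascl1b* (0.19) and *atp6v1aa* (0.29), and with 75th percentile scaling for BX005392.1 (0.0027), *maff* (0.057) and *slc35b3* (0.16). In MA over MC_Het, *sox11a* turned to -0.045 with edgeR and -0.072 with DESeq2. With each sample left out, the ranges were -0.29 to 0.040 for BX005392.1, -0.32 to 0.0073 for *maff*, -0.26 to 0.080 for *slc35b3* and -0.59 to 0.024 for *ascl1b* over all melanocytes. They were -0.55 to 1.19 for *sox19b* over MC_WT, -0.29 to 0.38 for *sox11a* over MC_Het, and -1.57 to 0.054 for *sox19b* and -1.52 to 0.11 for *sox14* in MC_Het over MC_WT. The cause was not tested. Among other named genes, edgeR did not call *gfi1aa* (adjusted p = 0.066), *tyrp1b* (0.060) or *hbaa1* (0.24). *hbaa1* was also not called by DESeq2 (0.17) or with the tumors of fish MA3 averaged (0.10), and *tyrp1b* was not called without a filter (0.054).

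Replicate numbers did not pair the melanocyte samples (correlations of deviations for the same number -0.02, -0.12 and -0.06). With a replicate block 0 members were called in MC_Het over MC_WT, as without it, while calls over all genes went to 8 from 70. Those calls ranged from 7 without a filter to 513 with DESeq2. Depth limits *sox1a* and *sox11b*, with at most 1 read in most libraries, and the melanocyte level of *sox2*, with 0 to 32 reads per library.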
